A study of Mus musculus with 2 samples.

Results

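The genes described here are 45 lysosomal genes, chosen by name, namely cathepsins and other hydrolases, membrane proteins, parts of the proton pump and the transcription factor TFEB. All 45 were listed in both libraries, among 24346 gene symbols. The lysosome is the acidic organelle in which cells break down proteins, glycans and lipids that they take up or recycle. Its soluble enzymes are made in the secretory pathway and mostly delivered by mannose 6-phosphate receptors, its membrane carries heavily glycosylated proteins such as LAMP1 and LAMP2, and a vacuolar-type ATPase pumps protons into its lumen. Lysosomes occur in nearly all nucleated cells, and macrophages, which digest dead cells and debris in wounds, are known for large numbers of them.

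The samples were dorsal skin wounds of 1-day-old C57BL/6J pups, taken 24 h after wounding, with 1 mRNA library for WT mice and 1 for PU.1-/- littermates, labelled PU.1 KO. The methods describe cuts made with an incision and the design text speaks of excision. PU.1, encoded by Spi1, is a transcription factor of blood cells, and the whole animal carries the deletion, so that macrophages and neutrophils, and also mast cells and T cells, are known to be missing throughout the body and not just in the wound. The number of pups behind each library is not stated. Without replicates, neither a p-value nor a spread between animals can be given, and each difference below is a difference between 2 libraries.

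Values are FPKM, fragment counts divided by transcript length and by library size, so that levels can be compared between genes. The ratio of PU.1-/- over WT was taken after values below 0.1 FPKM were raised to 0.1, and a gene was called lower or higher at a ratio of 2 or more in either direction. Read numbers were estimated from the smallest steps of the low values, which gave about 13678500 fragments for WT and 15711500 for PU.1-/-. Intervals are exact binomial intervals at 95% on these estimated reads and cover counting error only. Where a pair of values is given without names, WT comes first.

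The label of each library was first compared with Spi1, which had 35.4 FPKM in WT against 1.45 in PU.1-/-. All 10 macrophage markers were lower, with a summed level of 730 FPKM in WT against 6.46 in PU.1-/-, and 5 of them (Adgre1, C1qa, C1qb, C1qc and Tyrobp) were listed at 0 in PU.1-/-. Of 10 mast cell markers 9 were lower, with sums of 749 and 15.5 FPKM, and of 9 listed neutrophil markers 8 were lower, with sums of 12555 and 3669 FPKM. S100a8 (6600 and 2129 FPKM) and S100a9 (5311 and 1516 FPKM), which keratinocytes can also make, carried those sums, while Ngp, Ltf, Retnlg and Csf3r were listed at 0 in PU.1-/-. Markers of fibroblasts (3184 and 3703 FPKM), keratinocytes (11402 and 12952), endothelium (163 and 185) and melanocytes (216 and 239) summed to somewhat more in PU.1-/-, and those of skeletal muscle to 9516 and 15906 FPKM. The T cell list (119 and 167 FPKM) was carried by Thy1, its other genes being at or below 1.43 FPKM. All 5 B cell markers together had 0.58 and 0.32 FPKM. The adipocyte list had 3742 and 3272 FPKM, sums carried by Fabp4 (3408 and 3037 FPKM). All 6 adipocyte genes had a ratio below 1, with a median log2 ratio of -0.76. Xist was listed at 0 in WT and at 9.48 FPKM in PU.1-/-. The 4 Y-linked genes examined were listed at 0 in PU.1-/- against a sum of 65.8 FPKM in WT. This is the pattern of male WT and female PU.1-/- tissue, although the sex of the pups is not stated. Genotype and sex therefore cannot be told apart for any ratio below.

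Of the 45 genes, Ctss, Atp6v0d2 and Glb1 were at least 2-fold lower in the PU.1-/- wound, 3 of 45 genes, beside 4.34% of all listed genes and 3.83% of the 12958 genes with a mean of at least 1 FPKM. None was 2-fold higher, beside 2.32% of all listed genes and 1.42% of the genes with a mean of at least 1 FPKM. Most of the others stood a little lower. At a fold of 1.5, 14 of the 45 were lower, beside 7.67% of all listed genes and 7.39% of those with a mean of at least 1 FPKM, and none was higher, beside 5.79% and 5.03%. The ratio lay below 1 for 35 of the 45 genes, beside 34.1% of all listed genes, many of which lay below 0.1 FPKM in both libraries, and 50.5% of the genes with a mean of at least 1 FPKM. The median log2 ratio of the 45 was -0.29, while that of the 12958 genes was -0.0025. The sum over the 45 genes was 4004 FPKM in WT against 3470 in PU.1-/-, or 86.7% of the WT sum, and 88.1% without Ctss. In a bulk sample fewer cells of a type and less RNA per cell cannot be told apart. The macrophage, mast cell, neutrophil and adipocyte marker sums given above moved with these values, and their part in them was not tested.

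**Figure D1:**
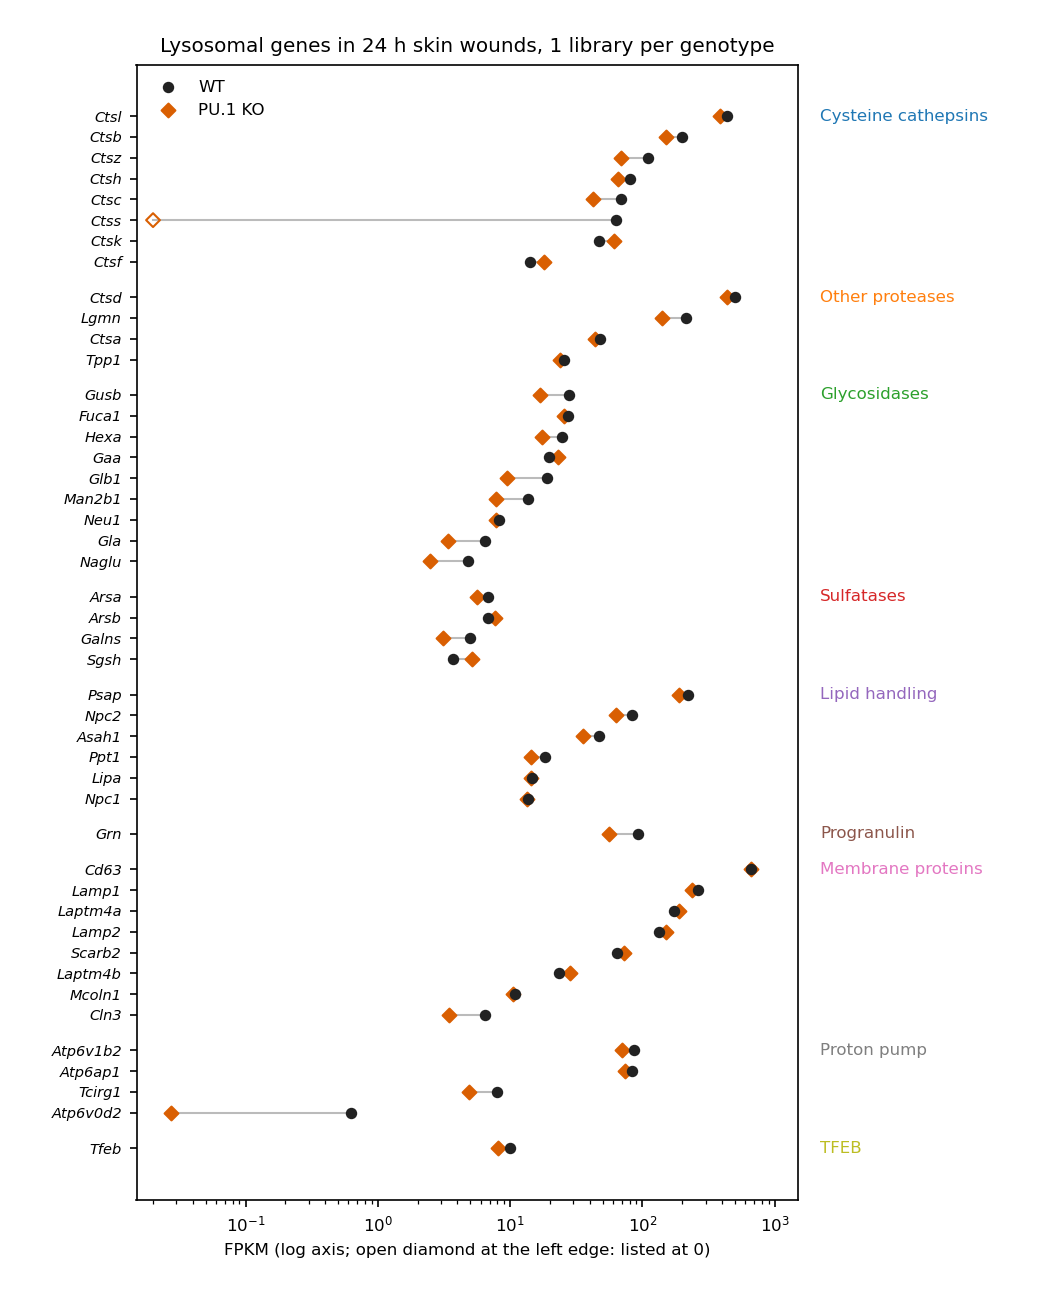
FPKM of each of the 45 lysosomal genes (log axis) in the WT wound (black circles) and the PU.1-/- wound (orange diamonds), 1 library each, grouped by role. Most pairs lie close together, while Ctss is listed at 0 in PU.1-/- (open diamond at the left edge) and Atp6v0d2 falls from 0.628 to 0.0274 FPKM.

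The WT levels ran from 0.628 to 662 FPKM, and the same genes led in both wounds. Cd63, a tetraspanin of late endosomes, lysosomes and secretory granules, was the most abundant of the 45, with 662 FPKM in WT against 666 in PU.1-/-. Ctsd, Ctsl and Lamp1 followed in both libraries. The highest 5 genes made up 52.2% of the WT sum and 55.1% of the PU.1-/- sum, and 4 of those 5 were shared, as were 9 of the highest 10. Lowest in WT were Atp6v0d2, Sgsh and Naglu, each below 5 FPKM.

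Soluble and membrane proteins were next summed apart. The 31 soluble proteins summed to 2463 FPKM in WT against 1939 in PU.1-/-, 78.7% of the WT sum, with 26 of the 31 below a ratio of 1 and a median log2 ratio of -0.35. The 8 membrane proteins outside the pump summed to 1338 and 1360 FPKM, 102% of the WT sum, with 3 of the 8 below a ratio of 1 and a median log2 ratio of 0.06. The soluble genes accounted for 98.2% of the net difference of the 45 genes. The sum of Lgmn, Ctsd, Ctss, Ctsl and Ctsb alone fell by 309 FPKM. By sums, the lists of other lysosomal genes did not show this order. There, 26 other membrane proteins summed to 73.3% of their WT level (439 and 322 FPKM) and 35 other enzymes to 88.4% (715 and 632 FPKM). Cd68 (43.9 and 4.12 FPKM) and Laptm5 (36.5 and 0.659 FPKM) fell most among those membrane proteins. The median log2 ratios, -0.10 for the other membrane proteins and -0.15 for the other enzymes, did follow the order, but lay close together. With 1 library per genotype no difference between groups of genes could be tested.

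**Figure D2:**
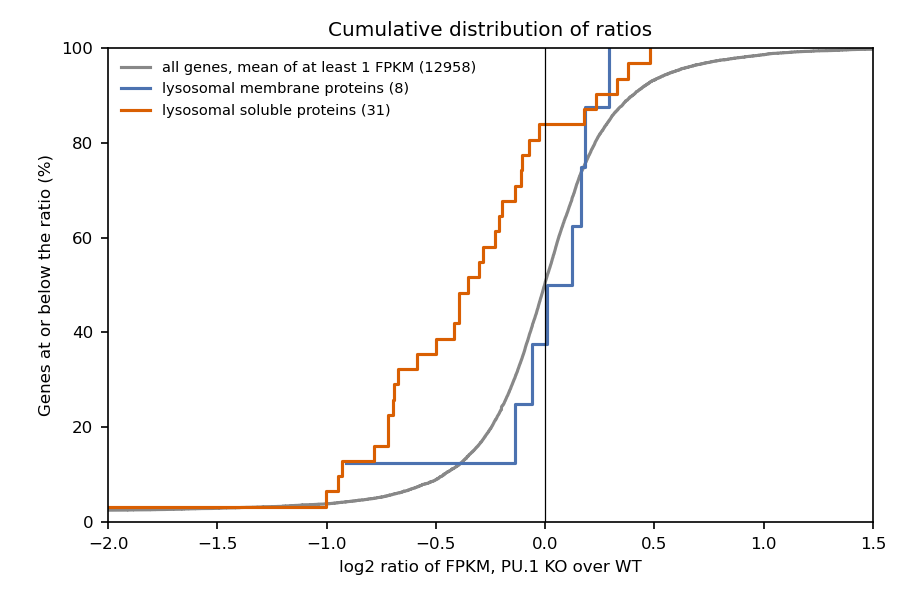
Percent of genes (vertical axis) at or below a given log2 ratio of PU.1-/- over WT (horizontal axis) for the 31 soluble lysosomal proteins (orange), the 8 lysosomal membrane proteins (blue) and the 12958 genes with a mean of at least 1 FPKM (grey). The orange curve lies left of the grey one between -1 and 0.5, with a median of -0.35, while the blue curve has a median of 0.06. Ctss lies beyond the left edge.

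The cysteine cathepsins are papain-like proteases. Ctss and Ctsk are next to each other on chromosome 3, 17398 bases apart in the RefSeq annotation of GRCm38, the assembly of mm10, and they went in opposite directions. Ctss, on chromosome 3 from 95526786 to 95556405, encodes cathepsin S, which trims the invariant chain of MHC class II in antigen-presenting cells. Ctsk, from 95499210 to 95509387, encodes cathepsin K, a collagen-degrading protease known from osteoclasts and also made by skin fibroblasts. Their promoters are shown because these are neighbouring genes with opposite ratios, and those of Glb1, which lay at the 2-fold line, and Ctsd, the most abundant protease, are shown for comparison. Each window runs from 250 bases before to 50 bases after the RefSeq start in GRCm38. Capitals mark GAGGAA, the core of the PU-box that PU.1 is known to bind (with GT after it, where present), and CACGTG, the E-box core of the CLEAR element that TFEB is known to bind, on either strand. The windows are chr3:95526536-95526835 (Ctss, plus strand), chr3:95498960-95499259 (Ctsk, plus strand), chr9:114400828-114401127 (Glb1, plus strand) and chr7:142387778-142388077 (Ctsd, minus strand).
Ctss: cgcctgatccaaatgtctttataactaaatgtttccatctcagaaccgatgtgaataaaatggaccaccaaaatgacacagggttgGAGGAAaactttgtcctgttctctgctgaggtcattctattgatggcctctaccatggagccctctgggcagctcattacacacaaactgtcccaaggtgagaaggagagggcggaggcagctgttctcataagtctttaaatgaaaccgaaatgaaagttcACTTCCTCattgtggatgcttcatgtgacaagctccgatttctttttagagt
Ctsk: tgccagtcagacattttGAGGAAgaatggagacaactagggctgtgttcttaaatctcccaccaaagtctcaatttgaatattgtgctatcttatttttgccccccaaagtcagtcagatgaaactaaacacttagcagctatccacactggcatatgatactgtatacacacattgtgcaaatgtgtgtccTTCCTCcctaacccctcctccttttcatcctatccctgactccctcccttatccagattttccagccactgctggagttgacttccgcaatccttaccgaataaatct
Glb1: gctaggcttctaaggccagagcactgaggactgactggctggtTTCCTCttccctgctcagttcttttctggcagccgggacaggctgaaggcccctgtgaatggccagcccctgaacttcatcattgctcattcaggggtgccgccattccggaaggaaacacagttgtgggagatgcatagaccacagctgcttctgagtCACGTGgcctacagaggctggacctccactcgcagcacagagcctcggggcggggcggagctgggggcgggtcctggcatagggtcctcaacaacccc
Ctsd: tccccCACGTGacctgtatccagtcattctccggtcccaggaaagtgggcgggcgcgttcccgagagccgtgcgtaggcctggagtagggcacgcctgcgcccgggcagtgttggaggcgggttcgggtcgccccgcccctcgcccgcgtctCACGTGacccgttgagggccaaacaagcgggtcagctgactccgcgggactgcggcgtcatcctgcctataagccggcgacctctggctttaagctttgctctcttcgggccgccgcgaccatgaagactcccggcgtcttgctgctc
The Ctss window holds GAGGAA at 2 places, one of them GAGGAAGT on the reverse strand across the annotated start, and no CACGTG. Ctsk holds GAGGAA at 2 places as well, without GT after it. The Glb1 window holds 1 match to each, and that of Ctsd holds CACGTG at 2 places and no GAGGAA. A match is a run of letters and was not tested as a binding site.

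Ctss had 63.1 FPKM in the WT wound, about 997 estimated reads, and was listed at 0 in the PU.1-/- wound. The interval of its WT over PU.1-/- ratio began at about 310 and had no upper limit. Because the PU.1-/- value is 0, the log2 ratio of Ctss, -9.30, is set by the floor of 0.1 FPKM. It was -5.98 with low values raised to 1 FPKM. Of the 12958 genes with a mean of at least 1 FPKM, 18 (0.139%), Ctss included, had a ratio this low or lower with the floor of 0.1 FPKM. Among genes listed at 0 in PU.1-/-, that order follows the WT level alone. Ctsk had 47.3 FPKM in WT against 61.5 in PU.1-/-, a log2 ratio of 0.38 (interval 0.25 to 0.51). Of 10 fibroblast markers, 8 also had a ratio above 1, beside 6416 of the 12958 genes with a mean of at least 1 FPKM. So had 7 of 9 keratinocyte, 5 of 6 endothelial, 5 of 6 melanocyte and 9 of 9 skeletal muscle markers. The part of any of these cells in the value of Ctsk was not tested. Ctsf, the broadly expressed cathepsin F, also had a higher value, 14.3 against 17.9 FPKM, a log2 ratio of 0.33 (0.13 to 0.53).

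The other cysteine cathepsins were present in both wounds and lower in PU.1-/-. Ctsc, which activates the serine proteases of neutrophil and mast cell granules, had 68.4 FPKM in WT against 42.3 in PU.1-/-, a log2 ratio of -0.69 (interval -0.78 to -0.61). Ctsz, a carboxypeptidase, had nearly the same ratio at a higher level, with 111 and 68.6 FPKM. Ctsb, a general lysosomal protease, stood at 200 and 150 FPKM, a log2 ratio of -0.42, and Ctsh, an aminopeptidase, at 81.0 and 65.8 FPKM, a log2 ratio of -0.30. Ctsl, the most abundant of the family, kept 87.2% of its WT level, with 439 and 383 FPKM. The 8 cysteine cathepsins together had 1025 FPKM in WT against 789 in PU.1-/-. Exons of Ctsb share 774 bases with Fdft1 on the opposite strand, a gene with 19.0 and 21.4 FPKM, and those of Ctsl share 395 bases with Gm49230 on the same strand and 1742 with Gm47123 on the opposite strand.

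The 4 proteases of other classes together had 788 and 642 FPKM. Ctsd, the aspartic protease cathepsin D, had 502 and 433 FPKM, a log2 ratio of -0.21 (interval -0.25 to -0.18), and 808 of its exon bases are shared with Gm49369 on the same strand. Lgmn, legumain, which cuts after asparagine and activates cathepsins, had the largest fall in FPKM of the 45 genes, from 212 to 141 FPKM, a log2 ratio of -0.59 (-0.65 to -0.53). Ctsa, a serine carboxypeptidase that shields partner enzymes, had 48.2 and 43.8 FPKM, and Tpp1, tripeptidyl peptidase, 25.6 and 23.8 FPKM. The interval of Tpp1 held a ratio of 1.

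**Figure D3:**
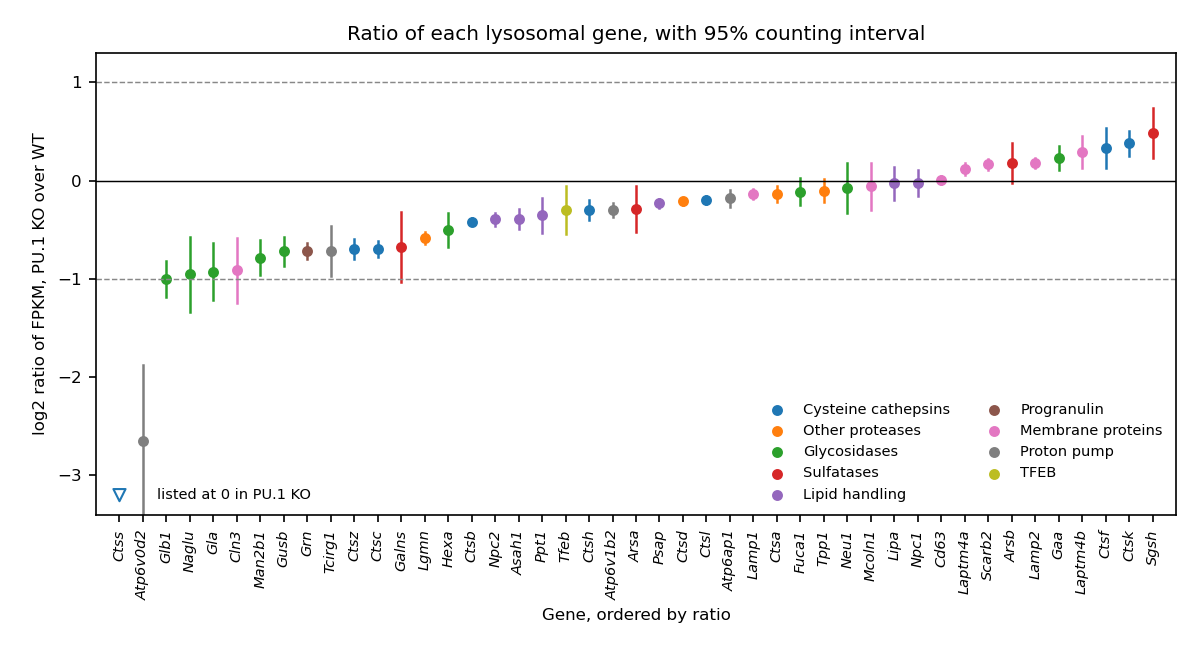
Log2 ratio of FPKM, PU.1-/- over WT, for the 45 genes in order (points, coloured by role) with 95% counting intervals (bars), which do not include variation between animals. Dashed lines mark a fold of 2. Glb1 lies on the lower line, Ctss is drawn as an open triangle because it was listed at 0, Atp6v0d2 is placed at its ratio after values were raised to 0.1 FPKM and its interval runs off the axis, and 8 genes (Sgsh, Ctsk, Ctsf, Laptm4b, Gaa, Lamp2, Scarb2 and Laptm4a) have intervals above 0.

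Of the 9 enzymes that remove sugars, 5 were at least 1.5-fold lower, beside 7.67% of all listed genes and 7.39% of those with a mean of at least 1 FPKM. Glb1, the beta-galactosidase on chromosome 9 from 114401078 to 114474379, had 19.0 FPKM in WT against 9.48 in PU.1-/-, a WT over PU.1-/- ratio of 2.01 with an interval of 1.77 to 2.28 that reaches below 2. Each of 3 rescalings of the libraries took it under 2-fold, and 165 of its exon bases are shared with Tmppe on the same strand (2.91 and 2.63 FPKM). Naglu, the alpha-N-acetylglucosaminidase of heparan sulfate breakdown, had 4.80 and 2.49 FPKM, a log2 ratio of -0.95 (interval -1.34 to -0.57). Gla, the alpha-galactosidase mutated in Fabry disease, had 6.48 and 3.40 FPKM, a log2 ratio of -0.93 (-1.22 to -0.64).

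Man2b1, an alpha-mannosidase, followed with 13.6 and 7.89 FPKM, and Gusb, the beta-glucuronidase, with 27.7 and 16.8 FPKM, log2 ratios of -0.78 and -0.72. Hexa, a hexosaminidase, was lower by less, with 24.5 and 17.3 FPKM. The other 3 of the group stood closer to their WT level. Fuca1, a fucosidase, had 27.5 and 25.4 FPKM, Neu1, a sialidase, had 8.23 and 7.82 FPKM, and Gaa, the acid alpha-glucosidase that digests glycogen, had 19.6 and 23.0 FPKM. The median log2 ratio of the 9 genes was -0.72, the lowest of the role groups with more than 1 gene.

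Among proteins that act together, some ratios lay far apart. Ctsa, Neu1 and Glb1 form a complex in which cathepsin A protects the other two, and their log2 ratios were -0.14, -0.07 and -1.004, so that Neu1 stood at 0.433 of the level of Glb1 in WT and 0.825 in PU.1-/-. The enzymes of heparan sulfate breakdown were also spread. Naglu and Hgsnat, the acetyltransferase (26.1 and 16.6 FPKM), had log2 ratios of -0.95 and -0.65, Ids and Idua had -0.30 and -0.04, and the sulfatase Sgsh had 0.48.

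The 4 sulfatases were low in level, between 3 and 8 FPKM in both wounds, and varied in direction. Galns, which acts on keratan and chondroitin sulfate, had 4.97 and 3.11 FPKM, a log2 ratio of -0.67 (interval -1.03 to -0.32). Arsa, which removes sulfate from sulfatide, had 6.82 and 5.597 FPKM, and Arsb, which acts on dermatan sulfate, 6.78 and 7.66 FPKM. Sgsh had 3.69 FPKM in WT against 5.15 in PU.1-/-, the highest ratio of the 45 genes. Its exons share 955 bases with Card14 on the opposite strand, which had 5.11 and 10.05 FPKM, and whether the counting used strand is not stated, so that reads of the pair cannot be told apart. The same holds for Ctsz, Ctsa, Hexa, Arsa, Arsb, Npc1, Grn and Lamp1, whose exons also overlap a gene on the opposite strand.

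The 6 genes of lipid handling all had ratios below 1, except that those of Npc1 and Lipa were above 1 in 2 of 3 rescalings of the libraries. Psap, the precursor of the saposins that present sphingolipids to hydrolases, had 221 and 189 FPKM, a log2 ratio of -0.23. Asah1, acid ceramidase, had 47.1 and 35.9 FPKM, a log2 ratio of -0.39 (interval -0.50 to -0.29), and Ppt1, which removes palmitate from proteins, had 18.4 and 14.4 FPKM. Exons of Ppt1 share 129 bases with Cap1 on the opposite strand, which had 145 and 98.3 FPKM, and its part in the value of Ppt1 was not tested. Npc2 and Npc1 hand cholesterol from the lumen to the membrane in turn. The soluble Npc2 had 82.8 and 63.0 FPKM, a log2 ratio of -0.40 (-0.47 to -0.33), and the membrane protein Npc1 had 13.7 and 13.5 FPKM, a log2 ratio of -0.02 (-0.15 to 0.10). Lipa, the acid lipase that frees cholesterol from its esters, had 14.6 and 14.3 FPKM. Grn, progranulin, a secreted growth factor that is cut to granulins in lysosomes, had 92.6 FPKM in WT against 56.3 in PU.1-/-, a log2 ratio of -0.72 (-0.80 to -0.63), whereas its receptor Sort1 had 16.3 and 15.9 FPKM.

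Most membrane proteins of the lysosome stood close to their WT level. Besides Cd63, Lamp1 had 263 and 239 FPKM and Lamp2 133 and 151 FPKM, log2 ratios of -0.14 (interval -0.18 to -0.09) and 0.18 (0.13 to 0.23). These are the main glycoproteins that line the inside of the membrane. Scarb2, a scavenger receptor family protein of the lysosomal membrane, had 64.6 and 72.3 FPKM. Laptm4a and Laptm4b, 4-span transmembrane proteins, had 174 and 190 FPKM and 23.3 and 28.5 FPKM. Mcoln1, the calcium channel TRPML1, had 10.9 and 10.5 FPKM. Cln3, the protein mutated in juvenile Batten disease, was the exception of the group, with 6.50 FPKM in WT against 3.45 in PU.1-/-, a log2 ratio of -0.91 (-1.25 to -0.58). Its exons share 442 bases with Apobr on the opposite strand, a gene that had 6.65 and 1.28 FPKM, and its part in the value of Cln3 was not tested.

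The 4 genes of the proton pump included the lowest of all 45. Atp6v0d2, on chromosome 4 from 19876838 to 19922566, encodes the d2 subunit, an isoform known from osteoclasts and macrophages. It had 0.628 FPKM in WT against 0.0274 in PU.1-/-, about 20 reads and 1 read, a WT over PU.1-/- ratio of the listed values of 23.0 with an interval of 3.67 to 952. With the PU.1-/- value raised to 0.1 FPKM, as for its call, the log2 ratio was -2.65, so the size of this fall depends on how low values are treated. Its common counterpart Atp6v0d1 had 66.3 and 59.2 FPKM, about 106 times the level of Atp6v0d2 in WT. Tcirg1, the a3 subunit, also known from osteoclasts, had 8.01 and 4.88 FPKM, a log2 ratio of -0.71 (interval -0.97 to -0.46), while the a1 and a2 subunits Atp6v0a1 and Atp6v0a2 had log2 ratios of -0.06 and -0.02. The osteoclast markers Calcr, Ocstamp, Dcstamp and Oscar were at or below 0.124 FPKM in both libraries, and the 7 markers of that list, of which Acp5, Mmp9 and Nfatc1 are also made by other cells, summed to 67.8 and 47.1 FPKM. Atp6v1b2, the B2 subunit of the cytosolic domain, had 86.3 and 70.1 FPKM, and Atp6ap1, an accessory protein, had 83.6 and 73.8 FPKM.

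Tfeb, the transcription factor that drives many lysosomal genes, had 9.98 FPKM in WT against 8.10 in PU.1-/-, a log2 ratio of -0.30 (interval -0.54 to -0.05). Its relative Tfe3 had 28.0 and 21.7 FPKM, a log2 ratio of -0.37 (-0.49 to -0.25). Mitf, another relative, had 5.99 and 6.04 FPKM, a log2 ratio of 0.01 (-0.19 to 0.21). Tfec, the member of the family known from macrophages, had 9.65 FPKM in WT against 0.120 in PU.1-/-, about 209 reads and 3 reads, a WT over PU.1-/- ratio of 80.4 with an interval of 27.0 to 391.

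Of the 45 genes, Gla, Lamp2 and Atp6ap1 are on the X chromosome, with log2 ratios of -0.93, 0.18 and -0.18. They did not move in 1 direction.

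The promoters of 37 of the 45 genes were matched in the RefSeq table. CACGTG was found in 14 of the 37 (37.8%), against 8.09% of 27025 genes with a promoter. The longer TCACGTGA was found in Cln3, Ctsa, Ctsd, Gla and Mcoln1, 13.5% of the 37 against 1.12% of all. Here all genes means every gene with a promoter, expressed or not. Among those with a mean of at least 1 FPKM, 1157 had CACGTG and 8664 lacked it, while 220 had TCACGTGA and 9601 lacked it. The median log2 ratio was -0.20 for the 14 genes with CACGTG and -0.23 for the 23 without. GAGGAA was found in 15 of the 37 (40.5%), against 31.3% of all genes, and the median log2 ratio was -0.71 with it and -0.14 without it. The longer GAGGAAGT, which contains GAGGAA, was found in Ctsc, Ctss, Gla and Gusb, 10.8% of the 37 against 3.69% of all. Each of these 4 had a log2 ratio of -0.69 or lower. So had Ctsz, Glb1, Naglu, Man2b1, Grn, Cln3 and Tcirg1, whose promoters lack GAGGAAGT. Of the genes with a mean of at least 1 FPKM, 5.88% lay at or below the ratio of Ctsc. These medians are descriptions over genes of 1 pair of libraries. Loss of PU.1 at a promoter and loss of the cells that express the gene cannot be told apart here.

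The same comparison was extended to 122 other genes in lists by role. Besides lysosomal proteins, these lists hold cystatins, relatives of Tfeb, and genes of sorting and of mTORC1 control, which are not all lysosomal. Of the 122 genes, 10 were at least 2-fold lower and 5 at least 2-fold higher, beside 4.34% and 2.32% of all listed genes. The counts of single lists below are small and are read against the same shares. Among 26 other membrane proteins, 4 were lower and none higher, and the median log2 ratio was -0.10. The 4 are Cd68, macrosialin (43.9 and 4.12 FPKM), Laptm5, a leukocyte relative of the Laptm4 genes (36.5 and 0.659 FPKM), Slc11a1, the phagosomal metal transporter NRAMP1 (11.4 and 0.599 FPKM), and Slc15a3, a peptide and histidine transporter (15.3 and 0.588 FPKM). Cd164 (126 and 122 FPKM) and Sidt2 (46.1 and 44.3 FPKM), the most abundant of the list, hardly differed. Cd68 also stands in the macrophage marker list.

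Of 35 other enzymes, 2 were lower and 1 higher, with a median log2 ratio of -0.15. Ifi30, the thiol reductase of antigen processing, had 66.7 and 33.3 FPKM, at the 2-fold line, and Ctsw, a cathepsin of cytotoxic lymphocytes, had 0.777 FPKM in WT and was listed at 0 in PU.1-/-. Rnaset2a was higher, at 0.0341 and 0.669 FPKM, while its near-identical copy Rnaset2b had 4.92 and 2.98 FPKM, so that a split of shared reads cannot be told apart from a change. Ggh (69.3 and 76.1 FPKM) and Smpd1 (54.0 and 48.6 FPKM) were the other abundant enzymes of this list.

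Of 21 other pump subunits, none was lower and 3 were higher, with a median log2 ratio of -0.07. Atp6v0c, the proteolipid of the membrane ring, had 56.2 FPKM in WT against 118 in PU.1-/-, while subunits of at least 100 FPKM in WT had log2 ratios between -0.52 and -0.04. The highest of these were Atp6v1g1 (207 and 201 FPKM), Atp6v0e (180 and 129 FPKM) and Atp6v1f (145 and 125 FPKM). The other 2 higher subunits, Atp6v1b1 and Atp6v1g2, lay at or below 1.61 FPKM. Of 12 genes of sorting to the lysosome, Sorl1 was lower (3.36 and 1.63 FPKM) and none was higher. The mannose 6-phosphate receptors M6pr and Igf2r had 72.9 and 61.2 FPKM and 17.2 and 27.3 FPKM, log2 ratios of -0.25 and 0.67, and Lrp1 (36.3 and 36.7 FPKM) and Gga1 (24.9 and 24.0 FPKM) hardly differed.

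**Figure D4:**
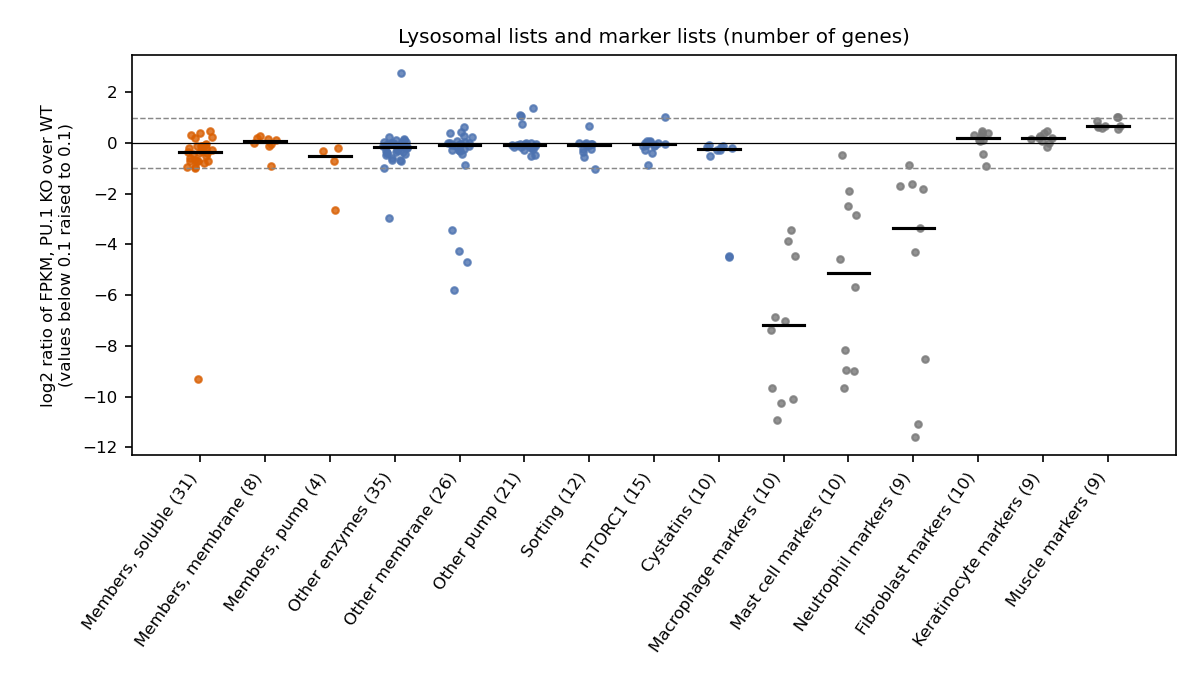
Log2 ratio of FPKM, PU.1-/- over WT, of each gene (points), with the number of genes in brackets and the median as a black bar. The 45 lysosomal genes are orange (soluble, membrane and pump, without Tfeb and Npc1). Other lists of or tied to the lysosome, cystatins included, are blue, and cell type markers are grey. Values below 0.1 FPKM were raised to 0.1. Most points of the lysosomal lists lie between the dashed lines at a fold of 2, while macrophage markers have a median of -7.18.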

How the data were processed

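The authors made stranded mRNA libraries (TruSeq) from wound tissue, read them as single-end reads, mapped them to mm10 and deposited FPKM values from Cuffnorm 2.2.1, which scales the libraries against each other. The submitters' processing notes name TopHat2 2.1.1, Bowtie2 2.2.8, SAMtools 0.1.18 and Cuffdiff 2.2.1. Annotation, filters and strand use: not given in the sources used here.

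Genes were the rows of the deposited FPKM tables with a member's symbol. Values below 0.1 FPKM were raised to 0.1 before ratios. Relative depth came from 460 low genes that share a ratio of 1.15 within 0.002. Absolute depth came from the step of 1 read in 115 genes read in WT only, with GENCODE vM21 transcript lengths less 200 bases, and estimates depend on the transcript used (the longest linked to RefSeq, found for 94.5% of symbols). The FPKM sums were 709528 (WT) and 687304 (PU.1-/-). Positions and promoters are those of RefSeq GRCm38. Calls and intervals were tested on simulated libraries of 17096 genes: 100 of 100 true falls and 100 of 100 true rises of 4-fold were found, 0 of 9518 unchanged genes of at least 100 reads were called, and 194 of 200 intervals held the truth. The simulation held counting error only, and its changes were all 4-fold, in genes of at least 100 expected reads. It cannot show how smaller differences, or variation between animals, would affect the calls. Alternatives of low values, scaling, filter and fold were computed.

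The members and lists were chosen with earlier results of these data known. Named genes are all 45 members, and from the other lists the genes called with a higher value of at least 5 FPKM and the 3 highest in WT, with Spi1, Xist and Y-linked genes. Marker lists are given mainly by counts and sums, not gene by gene. Named outside this rule after their values were seen are Hgsnat, Ids, Idua, Sort1, Igf2r, Atp6v0d1, Atp6v0a1, Atp6v0a2, Atp6v1b1, Atp6v1g2, Ctsw, Rnaset2a, Rnaset2b, Sorl1, Cst3, Cst7, Apobr, Card14, Fdft1, Tmppe and the single markers. Some single genes of the lists are not reported here. Markers were lists for macrophages, neutrophils, mast cells, T cells, B cells, osteoclasts, fibroblasts, keratinocytes, endothelium, skeletal muscle, melanocytes, adipocytes, sex-linked genes and general genes. Scripts ran in Python 3.11.15 with scipy 1.17.1 for the intervals, and with pandas 2.3.3, matplotlib 3.10.9 and numpy 2.4.6.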

Additional observations from a re-analysis of the deposited data

How the results depend on the processing

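The 3 genes called lower became 1 (Ctss) with a pseudocount of 1 FPKM, 14 at a fold of 1.5 and 2 under every other alternative, and no alternative gave a gene at least 2-fold higher. Ctss was called in all of them. Glb1 fell short under each rescaling, both pseudocounts and a fold of 3, and Atp6v0d2 with values raised to 1 FPKM or a pseudocount of 1, while a mean of at least 1 or 5 FPKM left it out. The 14 genes at a fold of 1.5 numbered 9 to 14 under the 8 alternatives of low values, scaling and filter (9 with a mean of at least 5 FPKM, since fewer genes were kept), a count added after the data were examined. The summed FPKM of PU.1-/- was 0.867 of the WT sum, 0.895 with equal FPKM sums and 0.900 with general genes (median log2 ratio -0.05) at 0, and the median log2 ratio stayed between -0.29 and -0.21. The median of the sulfatases, -0.05, reached 2.4e-05 with general genes at 0. Lipa and Npc1 changed sign under those 2 rescalings, and no gene called lower did. No paired analysis was possible because each genotype has 1 library. Depth limits the low genes: Naglu, at 4.80 FPKM in WT, had a log2 interval of -1.34 to -0.57 and Ctsl, at 439 FPKM, one of -0.24 to -0.16. Variation between animals is unknown.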

Other observations

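Cystatins, the inhibitors of cysteine cathepsins, summed to 22464 FPKM in WT, against 1025 FPKM for the 8 cysteine cathepsins. Most of that sum came from stefin copies of 1 gene cluster. Of the 10 cystatin genes, 2 were at least 2-fold lower in the PU.1-/- wound and none was higher, with a median log2 ratio of -0.24. Stfa2l1 had 798 FPKM in WT against 36.4 in PU.1-/-, and Cst7, cystatin F of leukocytes, had 2.24 FPKM in WT and was listed at 0 in PU.1-/-. The other stefins of the same gene cluster stayed high, with 7234 and 6555 FPKM for BC100530, 6146 and 5526 FPKM for Stfa3 and 4794 and 3370 FPKM for Stfa1. These genes are close copies, so values of single members are uncertain where reads were shared. Cst3, the secreted cystatin C, lies outside that cluster and had 393 and 376 FPKM, near the level of Ctsl (439 and 383 FPKM).

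Of 15 genes of mTORC1 control at the lysosomal surface, none was lower and 1 was higher, with a median log2 ratio of -0.04. The higher gene was Rragd, a Rag GTPase and a known target of TFEB, with 3.39 and 6.86 FPKM, a log2 ratio of 1.02 (interval 0.79 to 1.25). Lamtor1 had 106 and 96.7 FPKM, Lamtor2 85.3 and 70.6 FPKM and Rheb 63.2 and 59.8 FPKM.

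Across all genes with a mean of at least 1 FPKM and a promoter in the table, 46 of 358 genes with GAGGAAGT (12.8%) were at least 2-fold lower in PU.1-/-, against 324 of 9463 genes without it (3.42%). For CACGTG the shares were 21 of 1157 (1.82%) and 349 of 8664 (4.03%). These shares are descriptions of the 2 libraries, and no test was made. Genes with reads in WT alone can pass the filter on the mean. Loss of PU.1 at a promoter and loss of the cells that express the gene cannot be told apart.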
